A study of Homo sapiens with 6 samples.

Results

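The methionine cycle genes described here are 8 of the 31785 rows of a gene expression table from D283 Med, an established cell line of paediatric medulloblastoma, which arises in the cerebellum. They are MAT1A, MAT2A, MAT2B, AHCY, MTR, MTRR, CBS and MTAP. They were chosen by gene symbol from the knockdown-minus-WT differences of these same 6 libraries, so those differences are given as a description and are not evidence that the cycle responded. RNA sequencing covered 3 libraries from D283 cells labelled as Musashi-1 knockdown and 3 from D283 cells labelled as wild type (WT), all grown in the same serum-containing medium. Musashi-1 (gene MSI1) binds mRNA and is known from neural stem and progenitor cells. The labels leave unsaid what lowered MSI1, whether a control construct was present in WT cells, and whether replicate libraries are separate cultures. The p-values therefore set group differences against a spread between libraries that may be technical. The WT columns were identified by elimination, and WT 1 to 3 are column numbers. The single line and the mRNA readout limit what the 2 groups can stand for, since neither enzyme protein nor metabolites were measured.

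Methionine is converted to S-adenosylmethionine, the donor of nearly all cellular methyl groups, by methionine adenosyltransferases. Methyl transfer leaves S-adenosylhomocysteine, which AHCY splits into adenosine and homocysteine. Homocysteine is either remethylated to methionine by MTR with its partner MTRR, or committed to cysteine synthesis by CBS. A side branch spends S-adenosylmethionine on polyamines, and MTAP starts the return of the by-product to methionine. Many tumour cells depend on a steady methionine supply, and loss of MTAP together with CDKN2A is a frequent event in cancer.

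Values for single genes are normalised reads, that is, reads recovered from the deposited log2-like values and scaled to a common depth. Depth was 18895997 to 24442276 reads in knockdown libraries and 17299671 to 38790342 in WT libraries. MSI1 itself had 1385, 1197 and 1281 normalised reads in knockdown, against 1586, 1572 and 1378 in WT, a difference that did not pass (limma, adjusted p = 0.304). TPM is a per-length level scaled to the same total in every library. In TPM, MSI1 had 71.9, 67.1 and 65.9 in knockdown and 84.3, 87.4 and 84.3 in WT, without overlap. How many of all genes separate in TPM was not counted. Because the test did not pass, the libraries are called knockdown after their label. All 10 medulloblastoma markers listed for the check, among them OTX2, passed the filter on low values, and 1 was called: NPR3 fell by 0.76 (limma, adjusted p = 0.0437). WT 3 stood apart in some of them. IMPG2 had 7881 to 9936 normalised reads in knockdown, against 14226, 11547 and 3216 in WT 1, 2 and 3, and NEUROD1 2581 to 3589 in knockdown, against 3340, 2804 and 974 in WT 1, 2 and 3. Without WT 3 the MAT1A difference given below was −1.49 and that of MTAP 0.45. Of 10 markers of other cells, 9 had a row and 1 passed the filter, the collagen gene COL1A1. PTPRC and CD68 of immune cells and PECAM1 of endothelium were at 0 in every knockdown library, while PTPRC had 2 reads in each WT library and CD68 and PECAM1 at most 4 in any WT library. COL3A1, a fibroblast collagen, had 38 reads in knockdown 1 and at most 3 in every other library. The summed level of the 9 was 233 to 292 normalised reads in knockdown and 315 to 344 in WT, most of it COL1A1, and its part in the results below was not tested. In such bulk libraries fewer cells of a type and less RNA per cell cannot be told apart.

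All 8 genes passed the filter on low values, which asks for a mean at least 1 above the table's lowest value of 5.79. One of the 8, MAT1A, was called in the limma fit across all genes, and it fell. Over all 13558 tested genes 4.10% were called at an adjusted p under 0.05, 1.78% higher and 2.32% lower in knockdown. Because the genes were picked with this contrast in view, nothing is read from the count. The median difference of the 8 was 0.06, against 0.0061 over all tested genes, with 4 higher and 4 lower. In 2 of the 8, MAT1A and MTAP, the knockdown and WT libraries did not overlap, while 27.8% of all tested genes showed that separation.

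**Figure D1:**
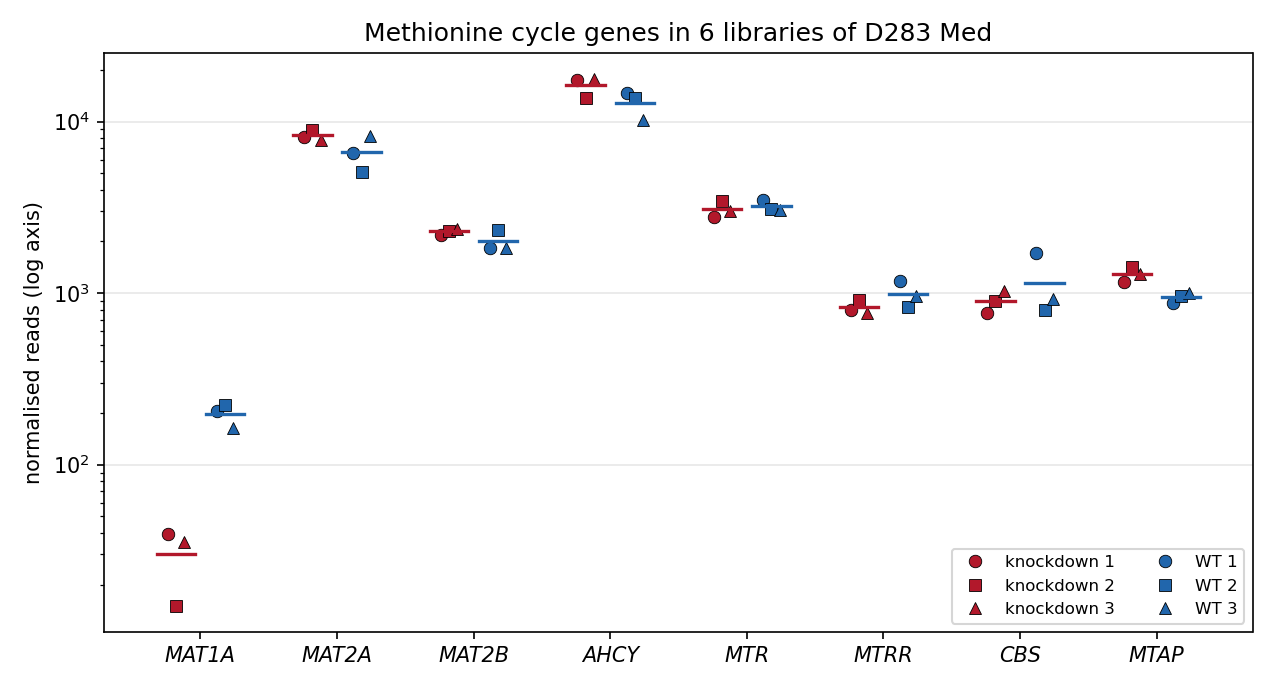
Normalised reads (log axis) of the 8 methionine cycle genes in each library, with knockdown left of WT, a symbol per library and bars at the group means. MAT1A lies between 15.1 and 39.5 in knockdown and between 164 and 221 in WT, MTAP separates by a smaller step, and the other 6 genes overlap between the groups.

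The widest contrast among the cycle genes was that of MAT1A, a gene of the synthesis step. It was not shared by the step as a whole, since MAT2A and MAT2B were higher in mean in knockdown and were not called. MAT1A and MAT2A encode the catalytic subunits of the isozymes that make S-adenosylmethionine. MAT1A is known as the form of adult liver, and MAT2A as the form of most other tissues and of dividing cells. MAT1A had 39.5, 15.1 and 35.4 normalised reads in knockdown 1, 2 and 3, against 206, 221 and 164 in WT 1, 2 and 3. Every knockdown library was far below every WT library, and knockdown 2 was the lowest. The means were 30.0 ± 13.1 in knockdown and 197 ± 29.6 in WT (SD, n = 3 each), 6.58-fold lower in knockdown. On the deposited scale, which compresses low values, the difference was −1.41 (SE 0.16, 95% interval −1.75 to −1.06). In the fit of the recovered reads (limma voom) the log2 fold change was −2.77, a 6.82-fold lower level with a 95% interval of 3.97-fold to 11.7-fold. Among the 13558 tested genes 10 had a lower difference than MAT1A on the deposited scale. The gene rests on few reads, 39, 12 and 33 in knockdown against 141, 351 and 214 in WT.

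MAT2A, whose mRNA is known to be stabilised and spliced more fully when S-adenosylmethionine is scarce, was the abundant form in all libraries. It had 8173, 8883 and 7841 normalised reads in knockdown 1, 2 and 3 and 6529, 5104 and 8191 in WT 1, 2 and 3. WT 3 lay inside the knockdown range and WT 2 was the lowest, so the groups overlapped. The means were 8299 ± 533 in knockdown and 6608 ± 1545 in WT (SD, n = 3 each), with a difference of 0.35 (SE 0.16, 95% interval −0.02 to 0.71). It was 0.18 without WT 2 and 0.51 without WT 3. METTL16, the RNA methyltransferase known to act on MAT2A mRNA and named here after its values were seen, had 1423 ± 54.6 normalised reads in knockdown and 1694 ± 120 in WT (SD, n = 3), a difference of −0.23 that did not pass (limma, adjusted p = 0.245). MAT2B, the regulatory subunit that binds the MAT2A enzyme, had 2194, 2311 and 2368 normalised reads in knockdown and 1826, 2344 and 1841 in WT. The 3 knockdown libraries were tightly grouped and WT 2 matched them. The difference was 0.19 (SE 0.12, 95% interval −0.08 to 0.47), and 0.30 without WT 2.

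Counted per merged exon length, MAT1A made up 0.584%, 0.206% and 0.546% of the catalytic subunit mRNA (MAT1A plus MAT2A) in knockdown 1, 2 and 3. Its share in WT 1, 2 and 3 was 3.70%, 5.01% and 2.38%. The groups did not overlap, and MAT2A made up most of the pair in each of the 6 libraries.

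The start regions of the pair are shown because the genes encode enzymes of 1 reaction but differ widely in level. Each runs from 250 bases before to 50 bases after a transcript start of RefSeq on GRCh38.p14, in the direction of the gene, with CG dinucleotides in capitals. MAT1A is at chr10:80289609-80289908 on the minus strand and MAT2A at chr2:85538918-85539217 on the plus strand.
MAT1A: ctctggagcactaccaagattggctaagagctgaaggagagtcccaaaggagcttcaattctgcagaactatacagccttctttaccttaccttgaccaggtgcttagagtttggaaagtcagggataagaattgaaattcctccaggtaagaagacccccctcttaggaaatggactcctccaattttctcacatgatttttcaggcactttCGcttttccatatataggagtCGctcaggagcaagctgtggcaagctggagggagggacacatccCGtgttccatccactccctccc
MAT2A: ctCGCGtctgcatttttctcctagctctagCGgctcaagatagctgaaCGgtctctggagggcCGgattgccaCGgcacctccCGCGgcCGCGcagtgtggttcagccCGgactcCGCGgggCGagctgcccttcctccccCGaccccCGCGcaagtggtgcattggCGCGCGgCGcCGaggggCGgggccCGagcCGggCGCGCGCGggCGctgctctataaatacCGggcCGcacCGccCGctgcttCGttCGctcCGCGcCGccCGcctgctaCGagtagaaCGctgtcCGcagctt
The MAT1A window holds 3 CG dinucleotides and the MAT2A window 43, with a median of 14 over 35116 windows of the same length. Of all windows, 18.2% have fewer than MAT1A and 95% have fewer than MAT2A. CG reads the same on both strands. Promoter windows of this table were found for 7 of the 8 genes, MTRR being the other one. MAT2B, AHCY and CBS have several, with 1 and 30 CG dinucleotides in those of MAT2B, 19, 24 and 39 in those of AHCY and 50, 32 and 4 in those of CBS. MTAP has 15, close to the median, and the MTR windows have 21 and 20. No methylation was measured.

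Musashi proteins bind RNA at a short consensus, and matches to it were counted because the libraries are labelled by MSI1 knockdown. The search took the transcript strand of the 3′ UTR in the longest-coding GENCODE 29 transcript. The shortest motif was GTAGT, the longer form had GTTAGT in its place, and the longest form was spelled GTTTAGT. Each was also searched with A as its first letter in place of G, none of the 6 motifs is contained in another, and overlapping matches were each counted. MAT1A has 3 matches, on a UTR of 1961 bases. They are printed with 10 bases on either side and the motif in capitals, match 1 at base 254, match 2 at base 584 and match 3 at base 1918 of the UTR.
MAT1A match 1: ggcaatgttaATTTAGTggaaaaggca
MAT1A match 2: acatgatgagGTAGTaccttttata
MAT1A match 3: ttatttgttaATAGTtcctgctaaa
That is 1.53 matches per kilobase, against a median of 1.29 over 17552 genes with a UTR of at least 100 bases, and 64.2% of those genes have a match. MAT2B has the densest matches of the 8, with 5.21 per kilobase, all 5 of them ATAGT, a density above that of 95% of genes. MAT2A has 2.65 per kilobase, AHCY 2.61, MTR 1.89, MTAP 1.86, CBS 1.45 and MTRR 0.94. A match is a string of letters, and binding was not measured.

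AHCY, the enzyme that removes S-adenosylhomocysteine and so relieves product inhibition of methyltransferases, was the most abundant of the 8. It had 17432, 13798 and 17616 normalised reads in knockdown 1, 2 and 3 and 14699, 13750 and 10169 in WT 1, 2 and 3. Knockdown 2 lay among the WT libraries and WT 3 was lowest. The means were 16282 ± 2153 in knockdown and 12873 ± 2389 in WT (SD, n = 3 each), and the difference was 0.35 (SE 0.17, 95% interval −0.03 to 0.72). Its size rested in part on WT 3, since without that library it was 0.19. The paralogs AHCYL1 and AHCYL2, regulators that lack the hydrolase role, did not pass. AHCYL2 had 4012 ± 565 normalised reads in knockdown and 5448 ± 1322 in WT (SD, n = 3), a difference of −0.41 (limma, adjusted p = 0.194). The enzymes that clear the adenosine released by AHCY were higher in mean without passing. ADA, adenosine deaminase, had 741 ± 110 normalised reads in knockdown and 528 ± 30.1 in WT (SD, n = 3; difference 0.41, limma adjusted p = 0.107), and ADK, adenosine kinase, differed by 0.22 (limma adjusted p = 0.367).

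Remethylation of homocysteine showed small differences. MTR, methionine synthase, which uses cobalamin and methyl-tetrahydrofolate, had 2791, 3432 and 2994 normalised reads in knockdown and 3504, 3080 and 3065 in WT. The groups interleaved, with a difference of −0.07 (SE 0.12, 95% interval −0.33 to 0.20). MTRR, the reductase that reactivates oxidised MTR, had 793, 915 and 769 normalised reads in knockdown and 1171, 831 and 959 in WT. Knockdown 2 lay above WT 2, and WT 1 was the highest library. The difference was −0.22 (SE 0.14, 95% interval −0.53 to 0.09), and −0.10 without WT 1. The alternative betaine-dependent enzymes BHMT and BHMT2, known from liver and kidney, were near the limit of detection, with 1.87 ± 0.73 and 1.09 ± 1.02 normalised reads in knockdown and 4.61 ± 2.20 and 2.75 ± 1.14 in WT (SD, n = 3). Both stayed under the filter and were not tested.

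At the entry into cysteine synthesis the difference rested on a single library. CBS, cystathionine beta-synthase, had 762, 903 and 1024 normalised reads in knockdown 1, 2 and 3 and 1723, 795 and 923 in WT 1, 2 and 3. WT 1 stood far above the other 5 libraries, and WT 2 and WT 3 lay inside the knockdown range. The means were 896 ± 131 in knockdown and 1147 ± 503 in WT (SD, n = 3 each), and the difference was −0.26 (SE 0.23, 95% interval −0.77 to 0.25). Without WT 1 the sign turned, with a difference of 0.05. CBSL, a near-identical copy annotated at 6444869 to 6468040 on the same chromosome 21, carried 3.71%, 6.02% and 5.73% of the reads of the pair in knockdown 1, 2 and 3 and 3.13%, 2.55% and 4.83% in WT 1, 2 and 3. The handling of reads that fit both copies was not given in the sources used here, so the CBS value is uncertain. Summed, the pair had 946 ± 148 normalised reads in knockdown and 1188 ± 518 in WT (SD, n = 3), and WT 1 was again the outlying library with 1779. CTH, the next enzyme towards cysteine, spread widely inside both groups, with 1102 ± 520 in knockdown and 1166 ± 400 in WT (SD, n = 3; difference −0.13, limma adjusted p = 0.849).

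MTAP, the phosphorylase that starts methionine salvage from the polyamine by-product, was present in all libraries. It had 1161, 1426 and 1289 normalised reads in knockdown 1, 2 and 3, against 873, 960 and 999 in WT 1, 2 and 3. On this scale each knockdown library lay above each WT library. The means were 1292 ± 133 in knockdown and 944 ± 64.5 in WT (SD, n = 3 each), a ratio of 1.37. The difference was 0.41 (SE 0.12, 95% interval 0.15 to 0.68), and MTAP was not among the called genes. In TPM, a per-length level scaled to the same total in every library, the separation was not complete. MTAP had 12.7, 16.9 and 14.0 TPM in knockdown and 9.81, 11.3 and 12.9 TPM in WT, with WT 3 above knockdown 1.

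MTAP lies on the plus strand of chromosome 9 at 21802543 to 21937651, next to the tumour suppressor CDKN2A. CDKN2A had 116 ± 33.9 normalised reads in knockdown and 133 ± 28.7 in WT (SD, n = 3; difference −0.12, limma adjusted p = 0.707), so RNA of both genes was found in each library. KLHL9, an adaptor of a ubiquitin ligase, differed by −0.02 (limma adjusted p = 0.956). ELAVL2, a neuronal RNA-binding protein farther along the arm, had 5221 ± 134 normalised reads in knockdown and 7923 ± 2146 in WT (SD, n = 3; difference −0.55, limma adjusted p = 0.120). CDKN2B, the partner of CDKN2A, was near the detection limit, with 6.69 ± 0.77 in knockdown and 6.53 ± 5.73 in WT. None of the 3 tested neighbours passed, and none was higher in mean in knockdown.

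**Figure D2:**
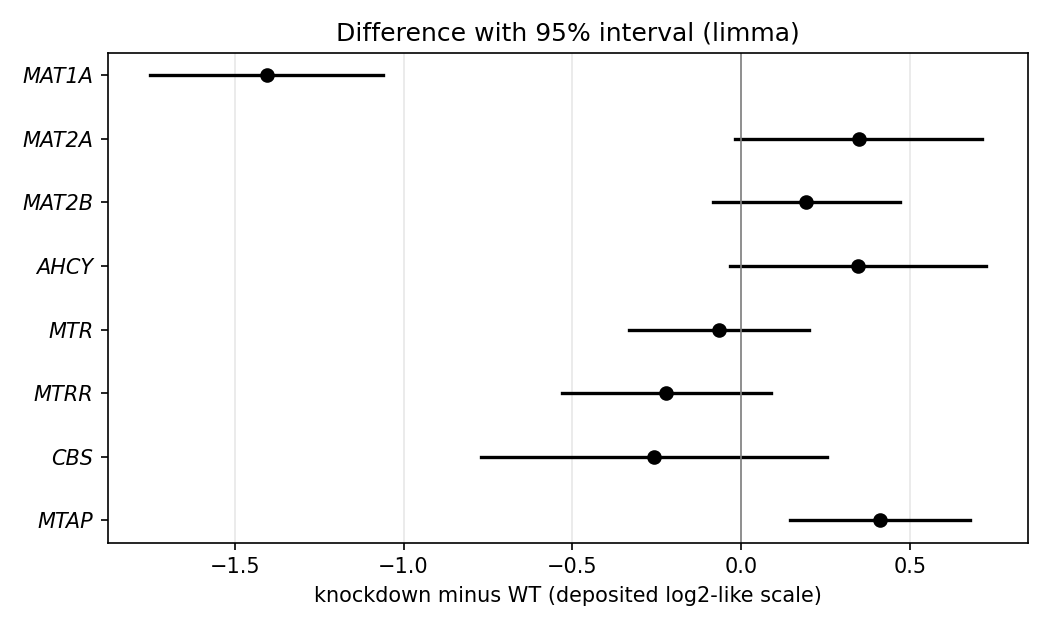
Difference knockdown minus WT on the deposited log2-like scale for each gene, with points at the estimate and lines for the 95% interval of the limma fit. The intervals of MAT1A (−1.75 to −1.06) and MTAP (0.15 to 0.68) do not reach 0, and those of the other 6 genes include it. The intervals are not adjusted for the number of genes. MTAP was not called, and 2976 of all 13558 tested genes had an unadjusted p under 0.05 (limma).

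Levels can be set side by side between genes only per length. In TPM over merged exons, AHCY led with 683 ± 60.6 in knockdown and 574 ± 69.4 in WT (SD, n = 3 each). MAT2A followed with 304 ± 34.2 TPM in knockdown and 260 ± 77.0 TPM in WT, and MAT2B with 73.0 ± 4.69 TPM in knockdown and 68.0 ± 9.96 TPM in WT. MTR had 44.5 ± 6.84 TPM in knockdown and 49.4 ± 2.47 TPM in WT. CBS and MTRR came next, with 21.7 ± 3.21 and 20.9 ± 3.02 TPM in knockdown and 29.2 ± 11.2 and 26.5 ± 4.02 TPM in WT, and the libraries of the pair overlapped within each group. The place of CBS is uncertain, since the handling of reads that also fit CBSL was not given. MTAP averaged 14.5 ± 2.13 TPM in knockdown and 11.3 ± 1.56 TPM in WT. MAT1A was last, with 1.32 ± 0.54 TPM in knockdown and 9.31 ± 0.95 TPM in WT. Besides CBS with MTRR, the only neighbours in this order to overlap were MAT1A and MTAP in WT, while in knockdown MAT1A lay far below MTAP. AHCY ranked above 99.4% of the 30027 rows with a length in knockdown and above 99.3% in WT, and MAT1A above 49.8% in knockdown and 67.3% in WT. With the length of the longest-coding transcript in place of merged exons, a choice made after seeing the data, CBS moved above MTR and the rest of the order stayed.

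**Figure D3:**
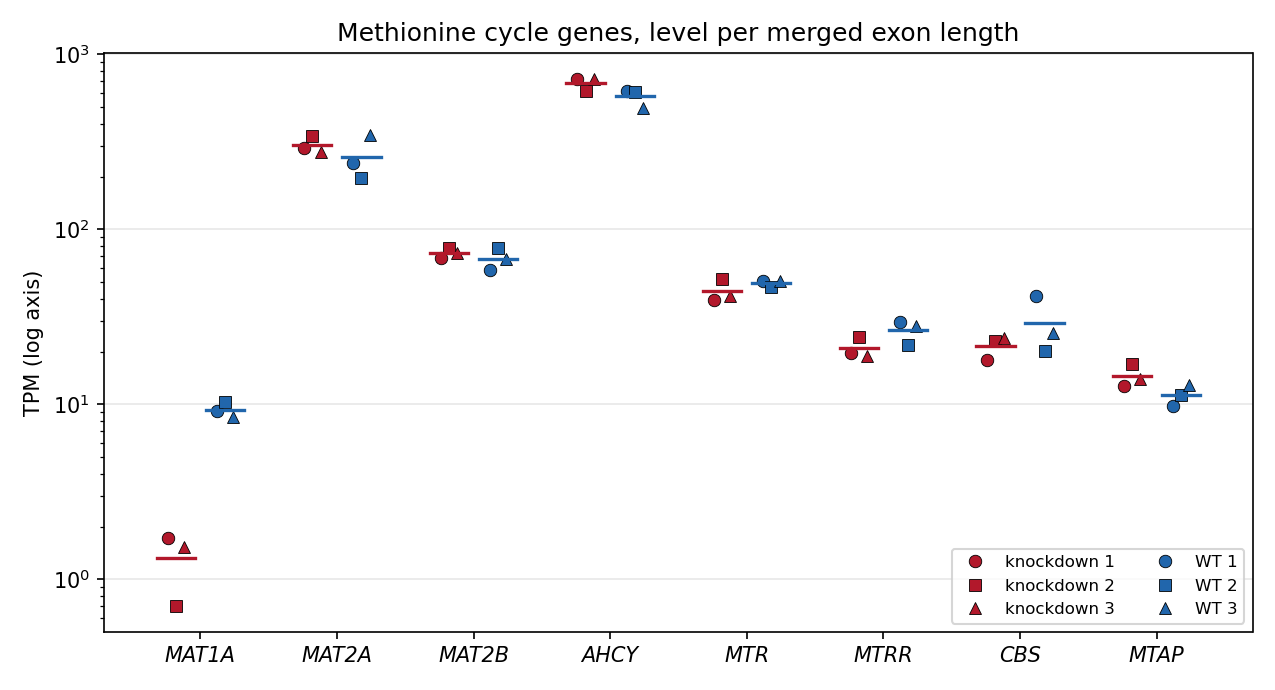
TPM (log axis) of the 8 genes per library, with knockdown left of WT, a symbol per library and bars at the group means. AHCY and MAT2A lie at the top in both groups, and MAT1A at the bottom, with 0.708 to 1.72 TPM in knockdown and 8.42 to 10.3 TPM in WT.

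The ratios MTR per MTRR and MAT2A per MAT2B overlapped between the groups. MTR per MTRR, per length, was 2.12 ± 0.11 in knockdown and 1.88 ± 0.21 in WT (SD, n = 3). MAT2A per MAT2B was 4.16 ± 0.32 in knockdown and 3.91 ± 1.32 in WT. The 8 genes together had 1151 to 1170 TPM in knockdown and 990.4 to 1059 TPM in WT, which did not overlap. The means were 1164 ± 10.8 TPM in knockdown and 1027 ± 34.5 TPM in WT, of which AHCY made up 58.7% ± 4.69 in knockdown and 55.9% ± 7.11 in WT. MAT1A was the smallest part of this sum in both groups. AHCY and MAT2A, the largest parts of the sum, each overlapped between the groups and were not called. On the deposited scale 4 of the 8 were higher and 4 lower. Sums of other genes were not compared. Because the 8 were picked with this contrast in view, nothing is read from the separation of their sum.

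Among 10869 well-expressed genes with a symbol, those whose deposited values followed each enzyme most closely over the 6 libraries were taken by Pearson's r. With so few libraries the group difference and single libraries set these values. The genes with r of at least 0.95 numbered from 13 for MAT2A to 169 for MAT1A, so the likeness is not particular to those named. ZNF827 (r = 0.999) and PARVA (r = 0.998) were most like MAT1A, and LINC00662 (r = 0.994) and KNTC1 (r = 0.993) most like MTAP. NSUN5P1 (r = 0.975) and AC022400.7 (r = 0.974) followed MAT2A, CPNE3 (r = 0.992) and IPP (r = 0.991) MAT2B, and FADS2 (r = 0.993) AHCY. FAM204A (r = 0.993) and RSRC2 (r = 0.991) were closest to CBS, LUC7L3 (r = 0.994) and FUBP3 (r = 0.981) to MTRR, and ZNF519 (r = 0.974) and DNAJC22 (r = 0.971) to MTR.

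Few genes around the cycle were called. The lists were chosen with earlier results of these data known, so their counts and calls are given as a description. Of 86 genes in 8 lists, 85 had a row, 71 were tested, none rose and 2 fell (limma, adjusted p under 0.05). At an unadjusted p under 0.05 the same fit had 9 higher and 4 lower, 13 of 71, against 2976 of all 13558 tested genes, and voom on the recovered reads called 1 higher, MMAB. The called share was 2.82%, against 4.10% of all tested genes. The median difference was 0.12 with 44 higher and 27 lower, against 0.0061 over all tested genes.

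SLC38A1, a sodium-coupled carrier of glutamine and other neutral amino acids, methionine among them, was the clearer of the pair. It had 2783, 2618 and 3191 normalised reads in knockdown 1, 2 and 3, against 5147, 5949 and 5687 in WT 1, 2 and 3. Every knockdown library was far below every WT library. The means were 2864 ± 295 in knockdown and 5594 ± 409 in WT (SD, n = 3 each), 1.95-fold lower in knockdown (difference −0.94, SE 0.12, limma adjusted p = 0.00656). It was called in each of 15 alternative fits. The other 8 tested carriers of the list, most of them shared by several neutral amino acids, did not pass. SLC38A2, the carrier of the list with the highest mean deposited value, which is not a level per length, differed by 0.14 (limma adjusted p = 0.734). SLC43A1, named after its values were seen, had 989 ± 84.7 normalised reads in knockdown and 664 ± 84.6 in WT (SD, n = 3; difference 0.51, limma adjusted p = 0.0527).

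FTSJ3, a methyltransferase of ribosome assembly on chromosome 17, had 3232, 3119 and 2532 normalised reads in knockdown and 6186, 4022 and 4436 in WT. WT 1 was the highest, and the groups did not overlap. The gene fell by 0.68 (SE 0.17, limma adjusted p = 0.0488), a call lost in 8 of 15 alternatives. PSMC5 on the opposite strand shares 16.8% of its exon bases. None of the other 15 DNA and RNA methyltransferases passed, and DNMT1, the maintenance DNA methyltransferase, differed by 0.13 (limma adjusted p = 0.720).

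Of 8 tested genes for cobalamin uptake and use, the cofactor of MTR, all had a difference above 0 on the deposited scale and none passed (median difference 0.18). Over all tested genes 51.0% had a difference above 0. TCN1 and MMACHC, under the filter and not tested, were lower in mean, with 0 and 16.1 normalised reads in knockdown and 1.74 and 23.5 in WT. The smallest difference of the 8 was that of LMBRD1, a lysosomal cobalamin exporter, at 0.01, with 496.6 normalised reads in knockdown and 497.1 in WT. MMAB, which adenosylates cobalamin for the mitochondrial enzyme MMUT, had 1206, 1217 and 1263 normalised reads in knockdown and 966, 797 and 576 in WT (difference 0.62, SE 0.16, limma adjusted p = 0.0584). All 3 knockdown libraries lay above the WT libraries, and the gene passed in 4 of the alternatives, among them voom on the recovered reads. It shares 4.86% of its exon bases with MVK on the opposite strand. CD320, the receptor that takes up cobalamin, differed by 0.26 and MMADHC, which sorts it between compartments, by 0.23, neither passing (limma adjusted p = 0.334 and 0.304).

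Salvage beyond MTAP had 6 tested genes, 3 higher and 3 lower, with none called (median difference 0.03). MRI1, the isomerase that follows MTAP, had 627 ± 50.6 normalised reads in knockdown and 456 ± 73.3 in WT (SD, n = 3; difference 0.39, limma adjusted p = 0.127). ENOPH1, a later enzyme of the route, had 1194 ± 92.9 in knockdown and 1386 ± 134 in WT (difference −0.20, limma adjusted p = 0.365), and APIP and ADI1 differed by −0.02 and 0.08. The polyamine list had 10 tested genes, 7 of them higher, and none called (median 0.13). AZIN1, which protects ODC1 from degradation and had the highest mean deposited value of the list, differed by 0.10 (limma adjusted p = 0.742). ODC1, the first enzyme of the route and named after its values were seen, had 12417 ± 1493 normalised reads in knockdown and 10599 ± 949 in WT (SD, n = 3; difference 0.22, limma adjusted p = 0.380).

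None of the 7 tested partners in remethylation and transsulfuration, none of 6 small-molecule methyltransferases and none of 9 arginine methyltransferase genes passed (median differences 0.12, 0.01 and 0.01). ICMT, with the highest mean deposited value of the small-molecule list, differed by 0.02 (limma adjusted p = 0.932). GNMT, which consumes S-adenosylmethionine in liver and was named after its values were seen, was near the detection limit, with 5.92 ± 7.18 normalised reads in knockdown and 10.6 ± 3.74 in WT (SD, n = 3). PRMT1, with the highest mean deposited value of its list, differed by 0.25 (limma adjusted p = 0.413). PRMT5, the enzyme known to be inhibited by the metabolite that MTAP removes and named after its values were seen, had 2627 ± 220 normalised reads in knockdown and 2838 ± 674 in WT (SD, n = 3; difference −0.09, limma adjusted p = 0.796).

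**Figure D4:**
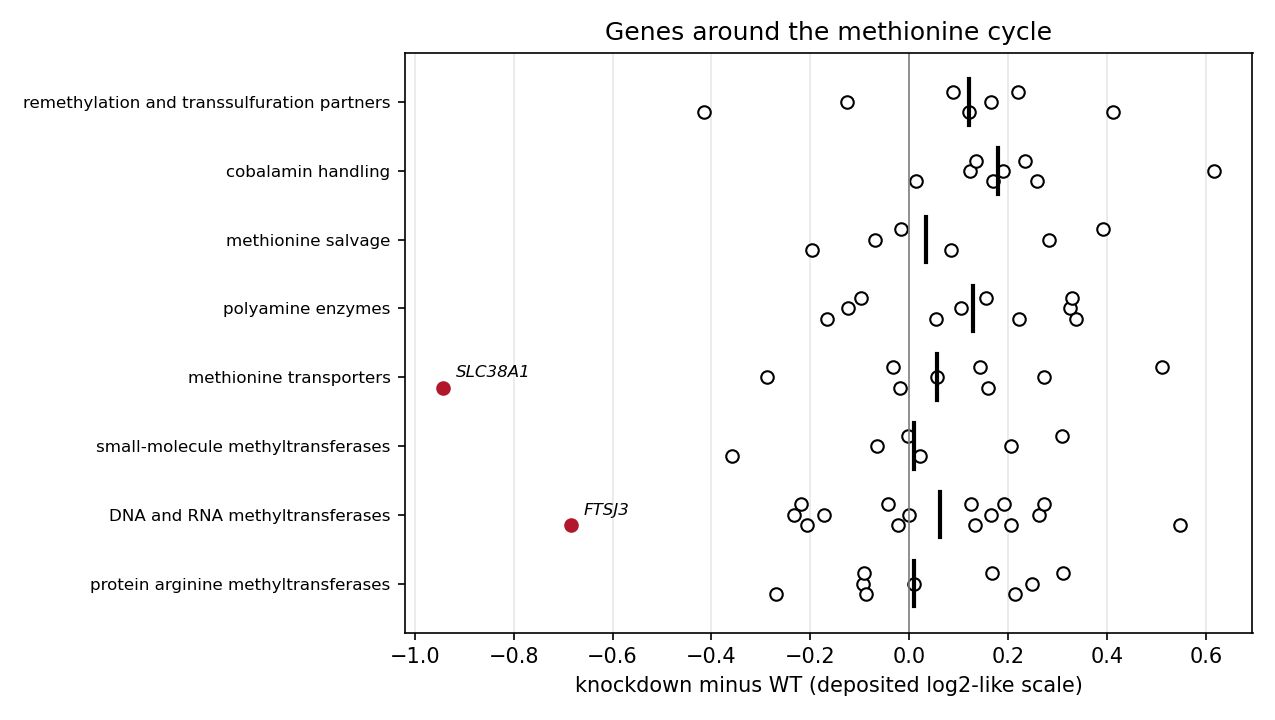
Difference knockdown minus WT on the deposited log2-like scale for the 71 tested genes of 8 lists around the methionine cycle, a circle per gene, filled where called (limma, adjusted p under 0.05), with a bar at each list's median. The called genes are SLC38A1 at −0.94 and FTSJ3 at −0.68. All 8 tested cobalamin genes lie right of 0, LMBRD1 by only 0.01, against 51.0% of all tested genes. TCN1 and MMACHC of that list were lower in mean, stayed under the filter and are not drawn.

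The positions of the genes on GRCh38, taken from GENCODE 29 by name, bear on how reads could be shared. MAT1A lies on chromosome 10 (minus strand) at 80271820 to 80289684 with 9 merged exons, and shares no exon bases with another annotated gene. MAT2A, on the plus strand of chromosome 2 at 85539165 to 85545280, shares 12.4% of its exon bases with GGCX on the opposite strand. MAT2B lies on the plus strand of chromosome 5 at 163503114 to 163519336, and MTRR on the plus strand of chromosome 5 at 7851186 to 7906025, where C5orf49 on the opposite strand covers 4.69% of its exon bases. AHCY lies on chromosome 20 (minus strand) at 34280268 to 34311802, where AL035458.2 on the same strand shares 3.57% of its exon bases. CBS lies on chromosome 21 (minus strand) at 43053191 to 43076943, and MTR on the plus strand of chromosome 1 at 236795281 to 236903981. MTAP shares 4.68% of its exon bases with the pseudogene ERVFRD-3 and 3.15% with AL359922.1, both on its own strand. Of the genes around the cycle, MRI1 shares 31.2% of its exon bases with AC008686.1 on the opposite strand. PRMT5 shares 27.1% with PRMT5-AS1 and MMADHC 25.6% with AC007364.1, also on the opposite strand. Whether counting used strand was not given in the sources used here, so reads of opposite-strand partners cannot be told apart.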

How the data were processed

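The build GRCh38 and the tools STAR, DESeq, CASAVA 1.8.2, Trim Galore, MultiQC and FastQC are named, without roles, per the submitters' processing notes. The read counter, annotation and strand setting were not given in the sources used here. The deposited table holds 1 log2-like value per gene and library, size-factor normalised and variance-stabilised by the authors, going by its file name and values. The knockdown columns match their samples' titles. The 3 other columns have an unexplained heading and were taken as WT by elimination, with the numbers of their headings.

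Inverting the stabilising function (offset 55.2) gave normalised reads, and dividing by each library's step gave whole reads for 100% of values (tolerance 0.01). Rows with a mean at least 1 above the lowest value were kept, 13558 of 31785. They were tested with limma 3.58.1 in R 4.3.3 (two-sided, empirical Bayes with a mean-variance trend, Benjamini-Hochberg over all kept genes). The fit was also run on simulated data, whose outcome is not reported here and is not used as support. With 3 libraries a group, the smallest exact permutation p is 0.1. TPM used recovered reads and merged exon lengths of GENCODE 29, for 30027 rows matched once by name. Promoter sequences are RefSeq's.

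The genes and lists were chosen with earlier results of these data known. Named genes are the 8, MSI1 and MSI2, called list members and the gene of each list with the highest mean deposited value. Also named are any kept partner, cobalamin, salvage or MTAP-neighbour gene, and the 2 genes most like each of the 8. Some genes that this rule names are not reported here. Alternatives were 2 other filters, quantile and median scaling, other variance models, library weights, a replicate block, limma voom on recovered reads and each library left out.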

Additional observations from a re-analysis of the deposited data

How the results depend on the processing

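The number of genes called over the table, 556, was 1213 with library weights, 221 with the replicate block and between 56 (without knockdown 1) and 726 (without WT 1) with a library left out. MAT1A was called in all 14 alternatives that tested it, with a deposited-scale difference of −1.49 to −1.27 with a library left out. The filter at 2 above the lowest value removed it, so 0 of the remaining 7 genes were called there, and with a library left out the count stayed at 1. The other 7 were called in none of their 15 alternatives. CBS reversed to 0.05 without WT 1 and ranged from −0.46 to 0.05 with a library left out, MTAP ranged from 0.34 to 0.48, and the remaining 5 kept their sign, MTR ranging from −0.15 to −0.0020. MSI2, at −0.40 and not called in the main setting (limma, adjusted p = 0.198), was −0.54 and called with library weights, and was called in none of the other 14 alternatives.

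Of the genes around the cycle none rose in the main setting, 1 (MMAB) with no filter, 1 (MMAB) with voom, 4 with library weights, and 0 to 2 with a library left out. The 2 that fell became 1 without the variance trend, 1 with the replicate block and 1 in each fit with a library left out, SLC38A1 remaining. The replicate numbers were not treated as pairs, because same-numbered libraries deviated with correlations of −0.0045, −0.253 and 0.0046, and no knockdown library was closest to the WT library of its own number. Depth limits MAT1A most, at 12 to 39 reads per knockdown library.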
